A study of Mus musculus with 11 samples.

Results

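The 10 genes described here encode integrin subunits through which cells hold matrix and basement membrane: the alpha subunits Itga2, Itga3, Itga5, Itga6, Itga11 and Itgav, and the beta subunits Itgb1, Itgb3, Itgb4 and Itgb6. They were taken by symbol, each through the Entrez Gene identifier of its row, and all 10 were found among the 23835 named genes measured. RNA came from mouse mammary tumour cells that carry MMTV-rtTA, a doxycycline-dependent activator driven by a mammary-directed viral promoter, and TetO-Wnt1, the Wnt1 oncogene under that activator's control. All cells were marked with the fluorescent histone H2B-eGFP, grown in the mammary site of female nu/nu mice, which lack a thymus but keep macrophages and natural killer cells, and sampled as the green-positive fraction. There were 4 arrays of primary tumours on doxycycline, labelled untreated, 3 arrays of residual lesions 28 days after doxycycline withdrawal, and 4 arrays of recurrent tumours, like the residual lesions labelled Wnt1 inhibition, for which no time after withdrawal is stated. The labels do not say that arrays of a group came from separate mice, and each p-value therefore reflects variation among the arrays at hand, part of which could be technical.

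An integrin is a pair of 1 alpha and 1 beta chain that spans the membrane, binds matrix outside and couples to actin or keratin filaments inside. Itgb1 is the common partner of most alpha chains, whereas Itgb4 pairs with Itga6 alone and ties epithelial cells to laminin through hemidesmosomes, and Itgb6 pairs with Itgav alone. In the mammary gland, laminin-binding integrins anchor basal cells to the basement membrane, and Itgav integrins bind ligands with an RGD motif, among them the latent form of TGF-beta.

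Each array gave 1 log2 signal per gene, made with RMA, a method that normalizes arrays and sums probes, so a difference of 1 is a 2-fold change of signal. Signals of different genes come from different probes, so their levels are not ranked, and where the signals of 2 subunits are subtracted within an array only the change of that difference between stages is read. Medians of the 11 arrays were 4.29 to 4.42, and the 95th percentile of 1066 olfactory receptor genes, taken as the upper edge of background, was 3.96 to 4.38. Of the 10 subunits, 9 exceeded that edge on at least 3 arrays, and Itgb6 exceeded it on none. Among markers of the labelled cell type, the keratins Krt8 and Krt18 read 8.18 to 10.16 and 7.08 to 10.59, while the epithelial adhesion protein Epcam exceeded the edge on 1 of 11 arrays, residual 2 at 6.29, where 11 of 12 epithelial markers exceeded it. On the other arrays 6 or 7 of 12 did. Mean signals of marker lists of endothelial cells (3.35 to 3.93) and lymphocytes (3.18 to 3.58) lay under the edge on every array. Single markers of both lists did not. Cdh5, a cadherin of vessel lining, read 10.13 on recurrent 3 and 4.66 to 5.09 on the other recurrent arrays. The endothelial marker Erg passed as higher in residual against primary cells (1.19, adjusted p = 0.0495). That call was lost in 14 of 20 alternatives, with adjusted p up to 0.173 without residual 3. Klrb1c, a natural killer cell marker of the lymphocyte list, exceeded the edge on 10 of 11 arrays, at up to 5.17 on residual 3. None of the 10 lymphocyte markers passed in any comparison. The mean of 10 basal cell markers was 4.17 to 4.29 on primary, 4.83 to 4.93 on residual and 4.21 to 5.14 on recurrent arrays. It was highest on recurrent 3, where the smooth muscle proteins Acta2 and Cnn1 had their highest signal of the 11 arrays, Cnn1 at 7.50. Fewer basal markers exceeded the edge on residual arrays (3 of 10) than on primary or recurrent arrays (4 or 5 of 10). The edge itself was higher on residual arrays (4.34 to 4.38) than on primary (3.96 to 4.02) or recurrent arrays (4.03 to 4.09). Trp63, at 4.08 to 4.38 on primary and 4.09 to 4.21 on residual arrays, exceeded it on the primary arrays only. A lower count is therefore not in itself a lower signal. In residual against primary cells Krt14 and Mylk passed as higher, Mylk losing its call in 8 of 20 alternatives. The other 8 did not pass, and the list median was 0.154. In bulk samples such as these, fewer cells of a type and less RNA per cell cannot be told apart.

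Residual cells lost signal of the laminin receptor subunits Itga6, Itgb4 and Itga3, of the collagen receptor subunit Itga2 and of Itgb3, and gained that of the fibrillar collagen receptor subunit Itga11. In limma, with p-values adjusted over all genes, 6 of the 10 subunits passed 0.05 in residual against primary cells, 1 higher and 5 lower, where 12.4% of all genes passed (4.81% higher and 7.61% lower). Their median log2 fold change was -0.80, against 0.03 for all genes. Recurrent cells differed from primary cells in 1 subunit, Itga11, which was higher, where 1.8% of all genes passed (0.818% higher and 0.986% lower), and the median over the subunits was -0.28, against -0.01 for all genes. Against residual cells, recurrent cells had more Itga6 and less Itga11, 2 of 10 subunits where 5.78% of all genes passed (3.58% higher and 2.19% lower), with a median of 0.29 against -0.03 for all genes. The residual arrays did not overlap the primary arrays for 8 of 10 subunits (24.8% of all genes), the recurrent arrays did not overlap the primary arrays for 3 of 10 (9.02% of all genes), and the recurrent arrays did not overlap the residual arrays for 3 of 10 (15.5% of all genes). The 3 comparisons share arrays and are not independent of each other.

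**Figure D1:**
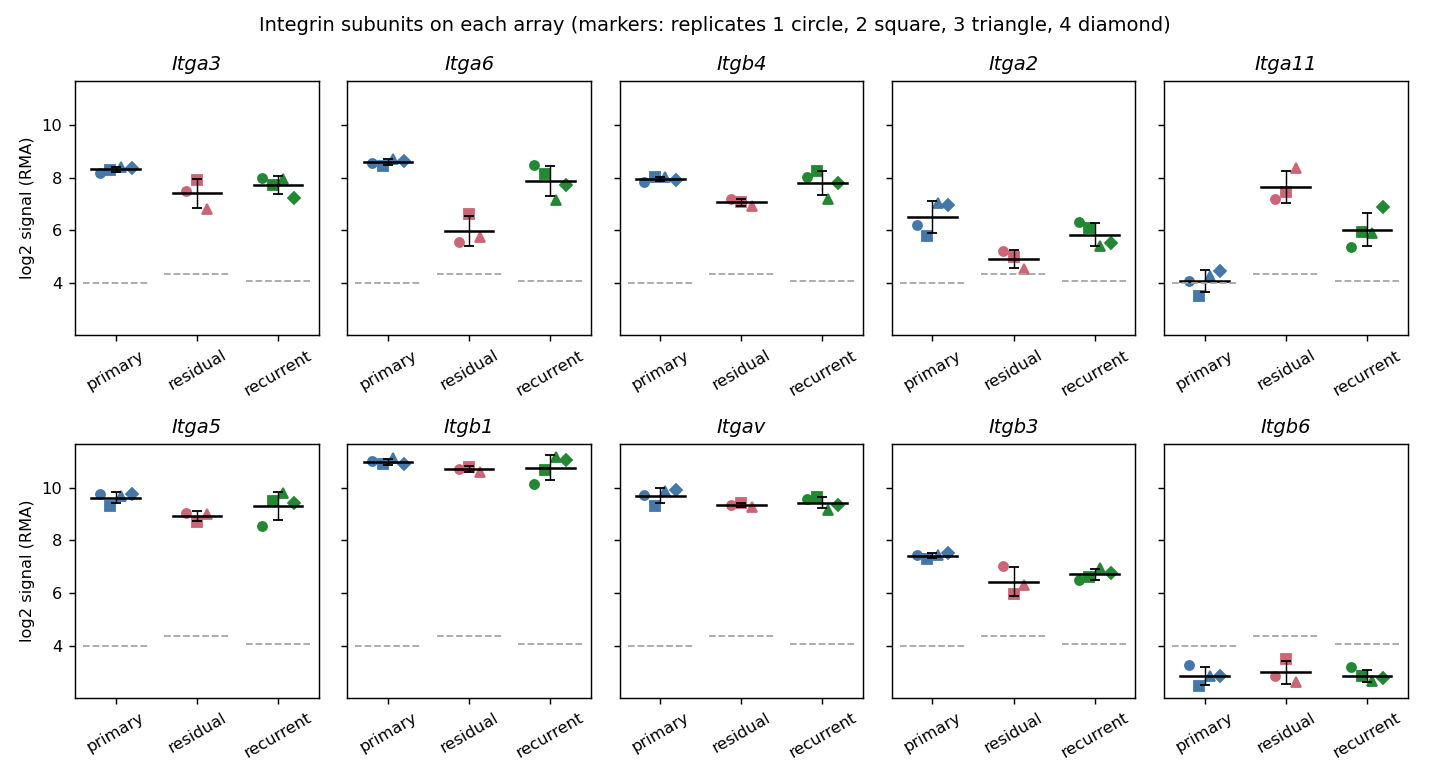
Log2 signal (vertical axis) of each integrin subunit in primary, residual and recurrent cells. Each point is 1 array, black bars are group means with SD (n = 4, 3 and 4), and dashed lines are the group's mean 95th percentile of olfactory receptor genes. Itga6 is lowest and Itga11 highest on the 3 residual arrays, and Itgb6 lies under the dashed line on all 11.

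Itga6, the alpha chain that binds laminin with Itgb4 or Itgb1, read 8.58, 8.43, 8.70 and 8.65 in primary cells, 5.56, 6.62 and 5.74 in residual cells, and 8.47, 8.14, 7.14 and 7.74 in recurrent cells. All residual arrays lay below all others, residual 2 being the highest of them, and recurrent 1 lay within the primary range. Residual cells averaged 5.97 ± 0.57 and primary cells 8.59 ± 0.12 (SD, n = 3 and 4), a 6.14-fold lower signal (log2 fold change -2.62, SE 0.31, adjusted p = 0.000233). Recurrent cells, at 7.87 ± 0.57 (n = 4), were 3.74-fold higher than residual cells (log2 fold change 1.90, SE 0.31, adjusted p = 0.00403). Against primary cells they did not pass (-0.71, 95% interval -1.34 to -0.09, adjusted p = 0.279). Without residual 2, the array with most epithelial signal, Itga6 changed by -2.94 in residual against primary cells and by 2.23 in recurrent against residual cells. The mean of 10 markers of dividing cells was 8.11 to 8.31 on the primary arrays, 4.47 to 5.04 on the residual arrays and 7.62 to 8.12 on the recurrent arrays. Epithelial markers were split: of 12, 3 passed as lower and 1 as higher in residual against primary cells, with a list median of 0.685. Their mean was 5.51 to 5.55 on primary, 5.13 to 6.50 on residual and 4.92 to 5.34 on recurrent arrays. The keratins Krt8 and Krt18 moved as Itga6 did. In residual against primary cells Krt8 changed by -1.67 and Krt18 by -2.32 (adjusted p = 0.000103 and 0.00432). In recurrent against residual cells Krt8 was higher by 1.37 (adjusted p = 0.000797) and Krt18 by 1.75 (0.0339). The Krt18 call was lost in 11 of 20 alternatives, with adjusted p up to 0.129 when only those 2 groups were fitted. The tight junction protein Cldn3 also fell in residual against primary cells, at -1.62 (adjusted p = 0.00800). Recurrent cells were lower still against primary cells, at -2.19 (0.00395). The claudin Cldn4 rose by 0.72 in residual against primary cells (adjusted p = 0.0171) but exceeded background on only 2 arrays. In recurrent against residual cells Cldn4 and the keratin Krt7 passed as lower, at -0.71 and -2.10 (adjusted p = 0.0312 and 0.0209). Those calls were lost in 7 of 19 and 1 of 20 alternatives. Krt7 was also lower in recurrent than in primary cells, at -2.31 (adjusted p = 0.0206, lost in 5 of 20 alternatives). Krt14, a keratin of basal cells, moved opposite to Itga6. It changed by 2.73 in residual against primary cells (adjusted p = 0.000286) and by -3.28 in recurrent against residual cells (0.000146). The parts of cell division, epithelial content and basal content in the Itga6 difference were not tested.

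Itgb4, the beta chain of hemidesmosomes, read 7.85, 8.03, 8.03 and 7.92 in primary cells, 7.21, 7.08 and 6.93 in residual cells, and 8.03, 8.24, 7.19 and 7.79 in recurrent cells. Its residual arrays lay below every primary array, and recurrent 3 lay inside the residual range. Residual cells averaged 7.07 ± 0.14 and primary cells 7.96 ± 0.09, a 1.85-fold lower signal (log2 fold change -0.89, SE 0.21, adjusted p = 0.0168, but 0.0639 without residual 3). Recurrent cells averaged 7.81 ± 0.45 and exceeded residual cells by 0.74 without passing (adjusted p = 0.0634). That difference passed without recurrent 3 (adjusted p = 0.00518) and when only genes above background were tested (0.0462). Recurrent 3, the array with high Cdh5, Acta2 and Cnn1, was also the lowest recurrent array for Itga6, Itga2 and Itgav. It was the highest recurrent array for Itga5 (9.79), Itgb1 (11.17) and Itgb3 (6.95). The part of the cells that Cdh5, Acta2 and Cnn1 stand for was not tested.

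Itga3, a laminin receptor chain that pairs with Itgb1, read 8.18, 8.30, 8.41 and 8.39 in primary cells, 7.51, 7.90 and 6.82 in residual cells, and 7.98, 7.73, 7.96 and 7.22 in recurrent cells. Both later stages lay below all primary arrays and overlapped each other. Residual cells were 1.87-fold lower than primary cells (log2 fold change -0.91, SE 0.25, adjusted p = 0.0328). The call was lost without any single primary array, without residual 1 or without residual 3, with adjusted p from 0.0553 to 0.116, the highest without residual 3. It was lost also with arrays scaled to one interquartile range (0.0649) or quantile-normalized again (0.0757). Recurrent cells differed from primary cells by -0.60 (95% interval -1.10 to -0.10, adjusted p = 0.255).

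Of 6 partners of the hemidesmosome, the intracellular linkers Plec and Dst, the transmembrane collagen Col17a1, the tetraspanin Cd151 and the laminin chains Lama3 and Lamb3, 1 rose and 5 did not pass in residual against primary cells. The one that rose was Lamb3, by 2.00 (adjusted p = 0.00484), with 7.94, 7.95 and 6.92 on the residual arrays and 5.49, 5.29, 5.90 and 5.75 on the primary arrays. Its direction was thus opposite to that of Itga6 and Itgb4. In recurrent cells Lamb3 was 2.88 below residual cells on the log2 scale (adjusted p = 0.000898), and it did not pass against primary cells (-0.88, adjusted p = 0.269). None of the 6 passed in recurrent against primary cells in limma. Cd151 was 0.52 lower in recurrent than in residual cells (adjusted p = 0.0363), a call lost in 13 of 20 alternatives, among them leaving out any one of 9 arrays (adjusted p from 0.0559 to 0.104). Among 8 further laminin chains, Lamb2 rose by 1.30 and Lamb1 fell by 0.80 in residual against primary cells (adjusted p = 0.000706 and 0.00509), while 6 did not pass. In recurrent against residual cells Lamb1 was higher by 0.98 and Lamb2 lower, at -0.98 (adjusted p = 0.00296 and 0.00823). Lamc1 was higher by 0.63 (adjusted p = 0.0314), a call lost in 10 of 20 alternatives, including without any single residual array or recurrent 1, 2 or 4 (0.0514 to 0.103).

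**Figure D2:**
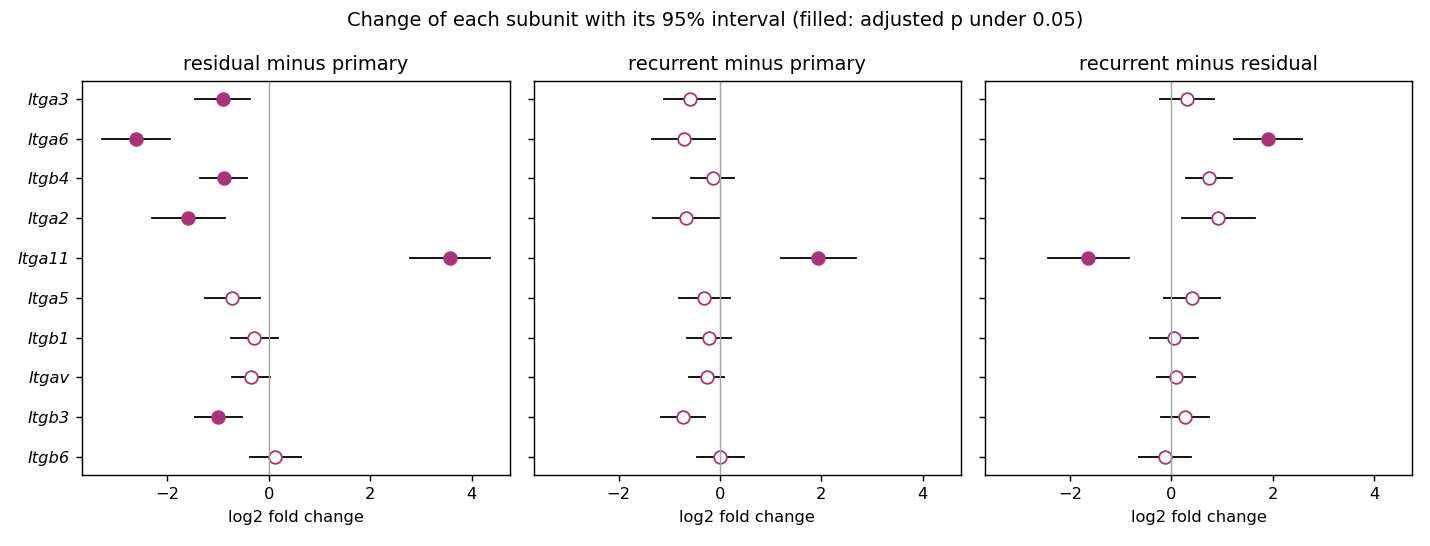
Log2 fold change (horizontal axis) of each subunit in the 3 comparisons, with 95% intervals from the limma fit. Filled points passed an adjusted p of 0.05. In residual minus primary 5 filled points lie left of 0 and that of Itga11, at 3.58, lies right of it.

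The receptors for collagen moved in opposite directions. Itga11, which binds fibrillar collagens together with Itgb1 and is known mainly from fibroblasts, read 4.10, 3.52, 4.26 and 4.46 in primary cells, 7.18, 7.44 and 8.35 in residual cells, and 5.39, 5.94, 5.89 and 6.88 in recurrent cells. The 3 stages did not overlap, with residual cells highest, recurrent cells between, and primary cells at the edge of background, which primary 2 did not exceed. Residual cells averaged 7.66 ± 0.62 and primary cells 4.08 ± 0.40, a difference of 3.58 (SE 0.36, adjusted p = 8.73e-05), and since primary signals lay near background its 11.9-fold size may be understated by the array. Recurrent cells averaged 6.02 ± 0.62, which was 1.94 above primary cells (SE 0.34, adjusted p = 0.0148, but 0.0509 without primary 2) and 1.63 below residual cells. That last difference had an adjusted p of 0.0232 and was lost without residual 2 (0.0508), residual 3 (0.0821) or recurrent 3 (0.0544), and when only those 2 groups were fitted (0.0779).

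Fibroblast markers moved with Itga11 in both comparisons against primary cells, but not in recurrent against residual cells. Of 12 such markers 8 rose and none fell in residual against primary cells, led by the matrix protein Dpt at 5.08 (adjusted p = 0.000309), and their mean was 7.97 to 9.33 on the residual arrays and 6.09 to 6.68 on the primary arrays. In recurrent against primary cells 6 of 12 rose, with a mean of 8.08 to 8.74 on the recurrent arrays. Residual 3 was the highest residual array for both this mean and Itga11, whereas recurrent 4, the highest recurrent array for Itga11, was among the lowest recurrent arrays for the mean, at 8.11. Recurrent and residual arrays overlapped in the marker mean and did not overlap in Itga11. In recurrent against residual cells Col6a3 passed as higher, at 2.13 (adjusted p = 0.0419, lost in 15 of 20 alternatives). Pi16 passed as lower, 10 of 12 did not pass, and the list median was 0.066. Markers present throughout included Dcn, Serpinf1 and Pdgfra, which exceeded background on all 11 arrays, while Fap, the fibroblast activation protein, exceeded it on 2. Whether marked tumour cells or other cells carried these transcripts was not tested.

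Itga2, the alpha chain of the epithelial collagen receptor with Itgb1, read 6.21, 5.78, 7.05 and 6.96 in primary cells, 5.21, 5.01 and 4.53 in residual cells, and 6.33, 6.09, 5.42 and 5.53 in recurrent cells. Residual arrays lay below all others, and recurrent arrays overlapped primary ones. Residual cells averaged 4.92 ± 0.35 and primary cells 6.50 ± 0.61, a 3-fold lower signal (log2 fold change -1.59, SE 0.33, adjusted p = 0.00877). Recurrent cells averaged 5.84 ± 0.44 and exceeded residual cells by 0.92 (95% interval 0.21 to 1.64), which did not pass (adjusted p = 0.138). Against primary cells they differed by -0.66 (95% interval -1.33 to 0.01, adjusted p = 0.374).

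The 250 bases before the transcription start of Itga11 and Itga2 are shown because these collagen receptor genes moved in opposite directions. RefSeq promoter windows (build GRCm38.p6) were at hand for 7 of the 10 subunits, 9 windows in all. The Itga11 window is chr9:62677605-62677854 on the plus strand and the Itga2 window chr13:114932101-114932350 on the minus strand, both printed 5′ to 3′ along the gene. Capitals mark matches, on either strand, to 5 short motifs: CTTTGA of TCF/LEF factors, TGANTCA of AP-1, GGAATG of TEAD, CAGAC of SMAD factors and the GC box GGGCGG.
Itga11: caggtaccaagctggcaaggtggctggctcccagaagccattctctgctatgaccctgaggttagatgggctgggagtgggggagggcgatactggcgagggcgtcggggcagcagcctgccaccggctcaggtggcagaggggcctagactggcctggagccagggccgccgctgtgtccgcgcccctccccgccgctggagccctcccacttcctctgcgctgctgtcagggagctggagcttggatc
Itga2: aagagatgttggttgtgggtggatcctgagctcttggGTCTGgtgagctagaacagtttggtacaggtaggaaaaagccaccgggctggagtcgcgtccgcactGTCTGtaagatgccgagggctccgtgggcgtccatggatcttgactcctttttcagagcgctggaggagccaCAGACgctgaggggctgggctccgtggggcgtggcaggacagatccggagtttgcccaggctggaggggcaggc
The Itga11 window held none of the 5 motifs, and the Itga2 window held CAGAC or its complement 3 times and no other. The same CAGAC search matched 42.2% of 32851 windows of this length, CTTTGA 13.8%, TGANTCA 6.75%, GGAATG 12.6% and GGGCGG 32.7%. None of the 9 windows held CTTTGA or TGANTCA. A match is a run of letters and not a bound site.

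Of 7 collagen genes that serve as ligands, 4 rose and 3 did not pass in residual against primary cells, with a median of 1.42. Col3a1, a fibrillar collagen, rose by 4.00 (adjusted p = 0.000307) and read 10.17, 8.77 and 10.80 on the residual arrays and 5.93, 6.37, 5.43 and 5.92 on the primary arrays. Col1a1 and Col1a2, the chains of type I collagen, rose by 2.47 and 1.42 (adjusted p = 0.0135 and 0.00429), and Col5a2 by 2.44 (0.00694). The Col1a1 call was lost without residual 3 (0.0599). In recurrent against primary cells Col3a1 rose by 3.90 (adjusted p = 0.00115) and Col1a1 by 2.95 (0.0156, but 0.0546 without primary 3 and 0.0520 without primary 4). The basement membrane collagens Col4a1 and Col4a2 did not pass in any comparison. None of the 7 passed in recurrent against residual cells in limma, where Itga11 did.

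**Figure D3:**
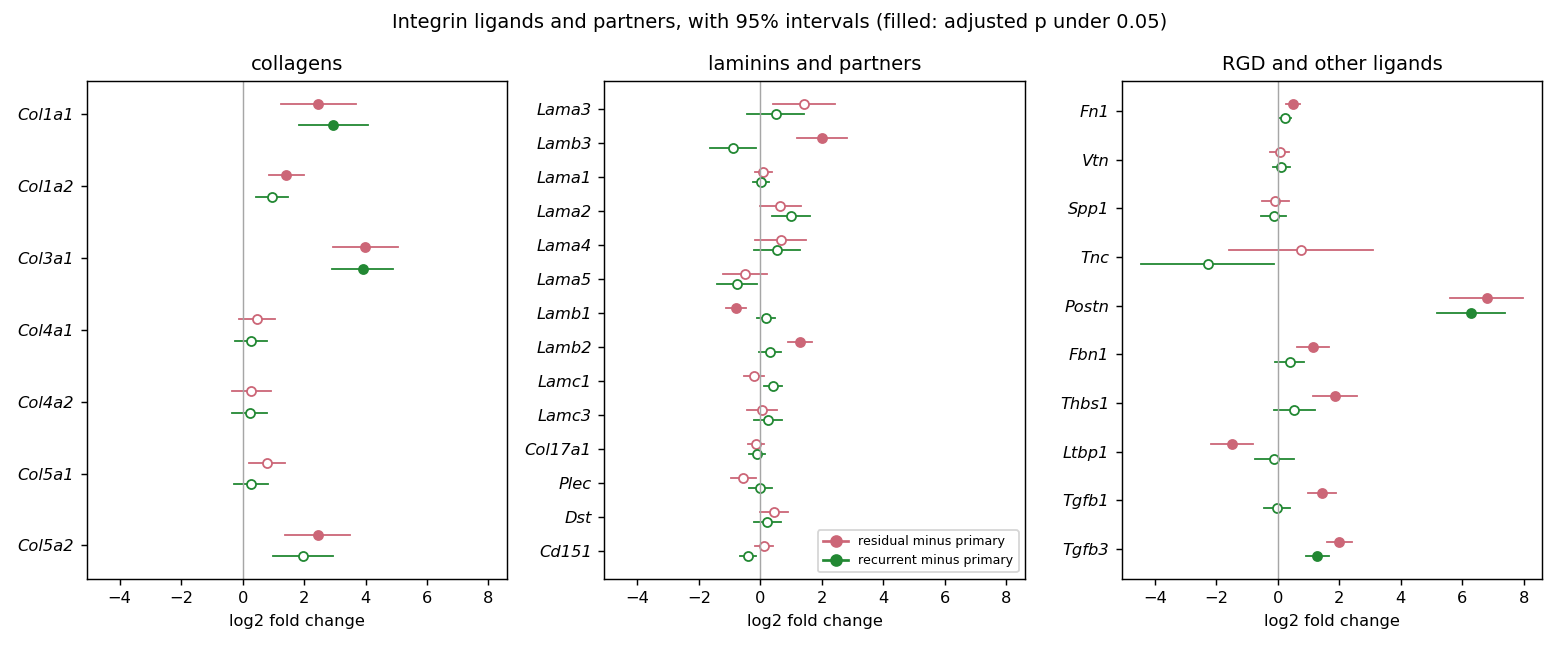
Log2 fold change (horizontal axis) of integrin ligands and hemidesmosome partners in residual minus primary and recurrent minus primary cells, with 95% intervals. Filled points passed an adjusted p of 0.05. Fibrillar collagens and Postn lie right of 0 in both comparisons, and Lamb3 lies at 2.00 and -0.88.

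Itga5, which forms the classical fibronectin receptor with Itgb1, read 9.77, 9.30, 9.69 and 9.76 in primary cells, 9.05, 8.70 and 8.99 in residual cells, and 8.56, 9.50, 9.79 and 9.43 in recurrent cells. Residual arrays lay below all primary arrays, and recurrent arrays covered both ranges. Residual cells were 0.71 below primary cells without passing (95% interval -1.26 to -0.16, adjusted p = 0.0908). The difference passed when only these 2 groups were fitted (0.0223) and without recurrent 1 (0.0159). Recurrent cells differed from primary cells by -0.31 (95% interval -0.82 to 0.20) and from residual cells by 0.41 (-0.14 to 0.96), neither passing.

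Itgb1, the beta chain shared by Itga2, Itga3, Itga5, Itga6, Itga11 and Itgav, read 11.02, 10.91, 11.13 and 10.89 in primary cells, 10.72, 10.80 and 10.60 in residual cells, and 10.13, 10.69, 11.17 and 11.06 in recurrent cells. Residual arrays lay narrowly below primary arrays, and recurrent arrays spread beyond both. Residual cells averaged 10.71 ± 0.10 and primary cells 10.99 ± 0.11, a difference of -0.28 that did not pass (95% interval -0.75 to 0.19, adjusted p = 0.464). Over 20 alternatives that difference ran from -0.37 to -0.006. The interquartile range of all signals was 3.525 to 3.569 on residual and 3.729 to 3.808 on primary arrays. The intervals of the other comparisons were -0.66 to 0.21 for recurrent minus primary and -0.41 to 0.53 for recurrent minus residual cells. All 3 intervals lie within 1 log2 unit of 0. Recurrent 1 was the lowest of the recurrent arrays for both Itga5 and Itgb1.

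Itgav, the alpha chain of receptors for RGD ligands, read 9.71, 9.30, 9.87 and 9.91 in primary cells, 9.34, 9.41 and 9.28 in residual cells, and 9.56, 9.66, 9.17 and 9.36 in recurrent cells. The stages overlapped. Residual minus primary was -0.36 (95% interval -0.73 to 0.02), recurrent minus primary -0.26 (-0.61 to 0.08) and recurrent minus residual 0.09 (-0.28 to 0.47), with adjusted p = 0.218, 0.527 and 0.822.

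Itgb3, which with Itgav binds vitronectin and fibrin and with Itga2b forms the platelet receptor, read 7.46, 7.29, 7.47 and 7.51 in primary cells, 7.03, 5.98 and 6.30 in residual cells, and 6.50, 6.62, 6.95 and 6.77 in recurrent cells. Both later stages lay below every primary array and overlapped each other. Residual cells averaged 6.44 ± 0.54 and primary cells 7.43 ± 0.10, a difference of -0.99 (SE 0.21, adjusted p = 0.0108). Recurrent cells averaged 6.71 ± 0.19, which was 0.72 below primary cells and did not pass (95% interval -1.15 to -0.29, adjusted p = 0.105). It passed when only those 2 groups were fitted (0.0268) and without residual 1 (0.0265). Markers of platelets did not all move with it: of 8, Pf4 changed by -2.08 in residual against primary cells (adjusted p = 0.00897), and 7 did not pass, with list means of 3.54 to 3.80 on the residual arrays and 3.71 to 3.98 on the primary arrays. Ppbp, Gp1ba and Gp6 exceeded background on no array.

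Itgb6, the epithelial chain that with Itgav activates latent TGF-beta, read 2.47 to 3.28 in primary cells, 2.65 to 3.49 in residual cells and 2.67 to 3.19 in recurrent cells. Every value lay under the background edge, and 4 arrays shared the value 2.84. No Itgb6 transcript could be told from background at any stage, and its adjusted p was 0.780 to 0.993.

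Other beta partners of Itgav, outside the 10 subunits, moved the other way from Itgb3. Itgb5, a vitronectin receptor chain, read 9.06, 9.07, 9.40 and 9.15 in primary cells, 11.09, 11.29 and 11.04 in residual cells, and 9.48, 10.25, 9.45 and 10.16 in recurrent cells. It was 3.92-fold higher in residual than in primary cells (log2 fold change 1.97, SE 0.21, adjusted p = 0.000112) and 1.31 lower on the log2 scale in recurrent than in residual cells (adjusted p = 0.00374). Itgb8, which like Itgb6 presents latent TGF-beta, read 8.31, 8.67 and 8.36 in residual cells and 7.38, 6.55, 6.94 and 6.53 in primary cells, a rise of 1.60 (SE 0.28, adjusted p = 0.00323). Of the 8 remaining integrins that are not leukocyte integrins, the platelet chain Itga2b among them, Itgb5 and Itgb8 rose in residual against primary cells and 6 did not pass, and in recurrent against primary cells none passed in limma. In that comparison Itga10, a collagen receptor chain of cartilage, had 1.21 (adjusted p = 0.0723).

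**Figure D4:**
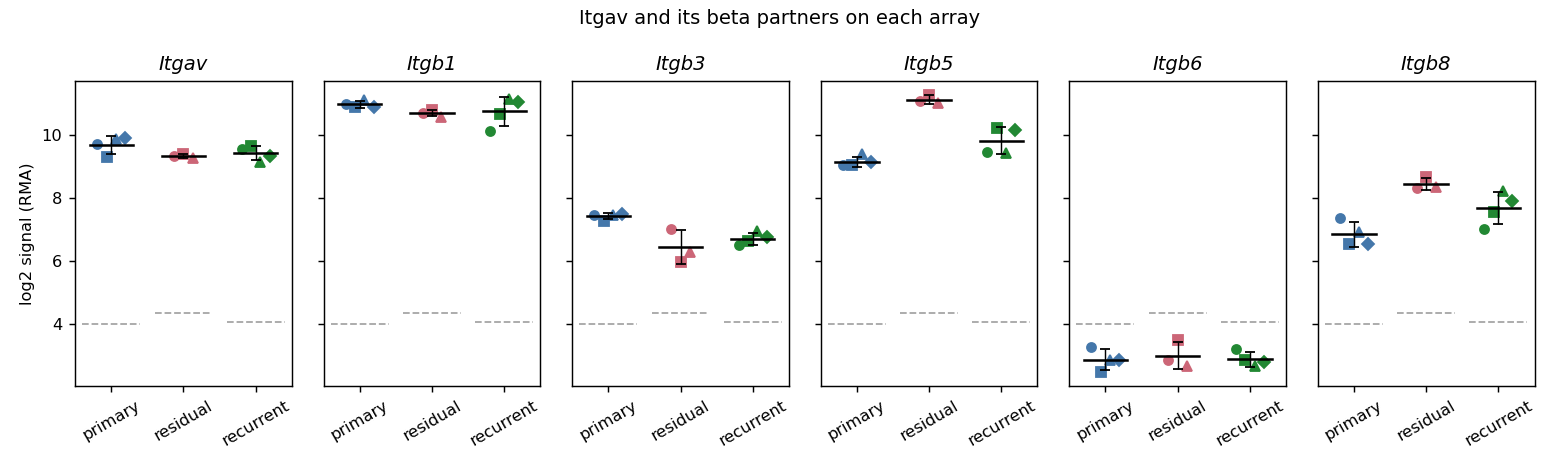
Log2 signal (vertical axis) of Itgav and its beta partners in primary, residual and recurrent cells. Points are arrays, bars are means with SD, and dashed lines mark the background edge. Residual cells stand above primary cells for Itgb5 and Itgb8, below them for Itgb3, and overlap them for Itgav and Itgb6.

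Of 10 RGD and other matrix ligands of these receptors, 6 rose, 1 fell and 3 did not pass in residual against primary cells. Postn, the matrix protein periostin, rose by 6.79 (adjusted p = 1.61e-05), Tgfb3 by 1.99 (4.67e-05), Thbs1, thrombospondin 1, by 1.86 (0.00363), Tgfb1 by 1.44 (0.00111), Fbn1, fibrillin 1, by 1.15 (0.00878) and Fn1, fibronectin, by 0.48 (0.00989). The primary signal of Postn lay under the background edge on primary 4, so its change may be understated. Ltbp1, which tethers latent TGF-beta to the matrix, fell by 1.49 (adjusted p = 0.00898). In recurrent against primary cells Postn rose by 6.29 (adjusted p = 0.000127) and Tgfb3 by 1.28 (0.00327), and 8 did not pass. In recurrent against residual cells Tgfb1 was lower by 1.48 (adjusted p = 0.00188), with 8.50, 9.49, 8.97 and 9.47 on the recurrent arrays and 10.54, 10.62 and 10.60 on the residual arrays. Thbs1, Tgfb3 and Ltbp1 also passed there, at -1.31, -0.72 and 1.38 (adjusted p = 0.0384, 0.0445 and 0.0247), and lost their calls in 9, 14 and 4 of 20 alternatives. For Ltbp1 these included leaving out residual 1 (0.0872), residual 2 (0.0787) or recurrent 1 (0.0566). For Thbs1 they included any single primary array, residual 1, residual 2 or recurrent 2 (0.0501 to 0.127), and for Tgfb3 any single array but residual 1 (0.0601 to 0.115).

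Inside the cell, most of the adhesion machinery did not pass, as was so for most genes measured. Of 26 adaptors and kinases 2 rose, 3 fell and 21 did not pass in residual against primary cells, with a median of -0.18. In that comparison 12.4% of all genes passed. Parvb, an actin-binding parvin, fell by 1.32 (adjusted p = 0.000207), Pxn, the adaptor paxillin, by 1.07 (0.00993), and Lims2, the parvin partner PINCH2, by 1.12 (0.0177, but 0.0554 without residual 2 and 0.0715 without residual 3). Tln2, a talin, rose by 0.71 (adjusted p = 0.0265), a call lost without primary 1 (0.0706), primary 2 (0.0712), residual 1 (0.100) or residual 2 (0.0526). Fermt1, the epithelial kindlin, passed at 0.63 but exceeded background on no array. In recurrent against primary cells Parvb fell by 0.82 and Lims2 by 1.45 (adjusted p = 0.0136 and 0.0135), and 24 did not pass. Of all genes 1.8% passed there. Among adaptors and kinases that passed in none of the 3 comparisons, Tln1, Fermt2, Ilk, Ptk2 and Vcl had changes between -0.21 and 0.44. Not all the uncalled ones changed as little. Tns4 read 6.92, 6.64, 7.16 and 7.20 in primary cells and 5.48, 6.77 and 5.37 in residual cells. In recurrent cells Tns4 read 7.39, 5.77, 4.13 and 4.66.

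Of 8 integrin subunits known mainly from leukocytes, 3 fell in residual against primary cells: Itgam by 1.36, Itgb2 by 0.98 and Itgb7 by 1.38 (adjusted p = 0.0158, 0.00458 and 0.00142). The Itgam call was lost without residual 1 (0.0504). In recurrent against primary cells Itgb7 was lower by 0.92 (adjusted p = 0.0384), a call lost in 12 of 20 alternatives, and Itgb2 was 0.82 higher in recurrent than in residual cells (0.0219), lost without residual 1 (0.0637) or residual 2 (0.0752). Itga4, Itgad, Itgae, Itgal and Itgax exceeded background on no array. Of 12 macrophage markers 5 passed as lower in residual against primary cells, and the list's mean was 5.12 to 5.97 on the residual arrays and 6.13 to 6.84 on the primary arrays. Without residual 1, 4 of these 5 calls were lost (C1qc 0.0632, Tyrobp 0.0784, Fcgr1 0.104 and C1qb 0.156), and that of Cd14, a co-receptor for bacterial lipid, was kept. The macrophage mean was lower on the residual arrays, as were Itga6, Itgb3 and Itga2, and its part in those differences was not tested.

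Receptor pairs were compared by the difference of their 2 signals within an array. The signal of Itga6 minus that of Itgb4 within each array averaged -1.10 ± 0.60 in residual cells and 0.63 ± 0.16 in primary cells, a difference of -1.73 (exact two-sided permutation p = 0.0286). Itga11 minus Itgb1 averaged -3.05 ± 0.70 in residual cells and -6.91 ± 0.39 in primary cells, a difference of 3.86 with the same exact p. Over 9 receptor pairs and 3 comparisons, 7 of 27 differences had an exact permutation p of 0.0286, the smallest these group sizes allow, and none passed after adjustment over the 27 (smallest adjusted exact p = 0.110). With only 7 of 27 at this smallest value, none could pass the adjustment. The lack of a pass therefore does not show that paired subunits changed equally. Only Itga3, Itga6 and Itga11 against Itgb1 and Itga6 against Itgb4 were among the 7. Itgav minus Itgb1, by contrast, differed by -0.07 between residual and primary cells (exact permutation p = 0.600).

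**Figure D5:**
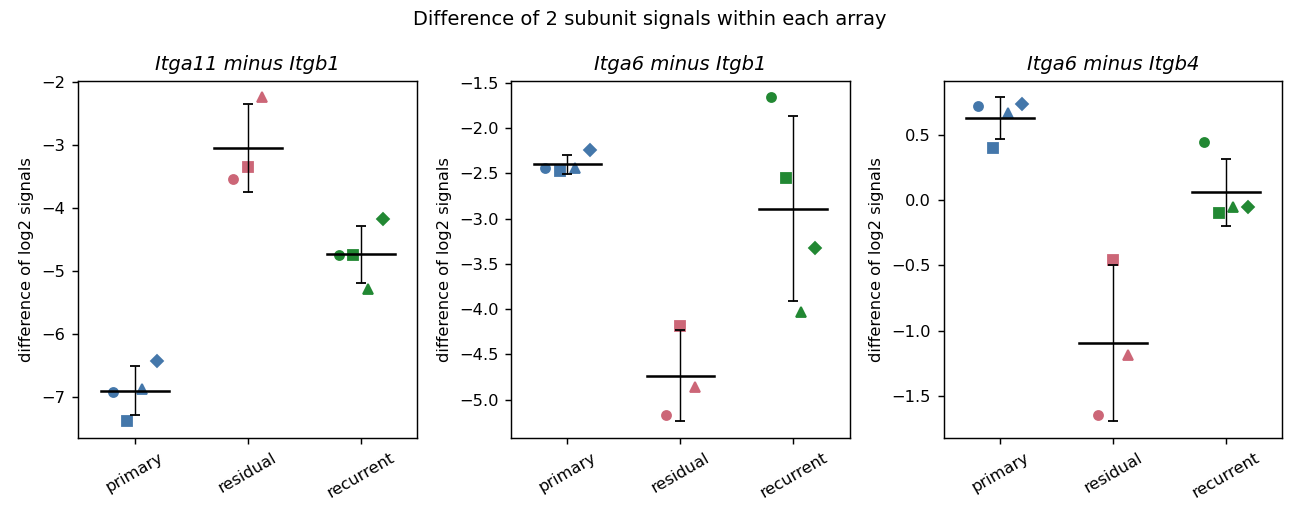
Difference of the log2 signals of 2 paired subunits within each array (vertical axis; scales differ between panels) in primary, residual and recurrent cells. Points are arrays and bars are means with SD. Residual cells lie above primary cells for Itga11 minus Itgb1 and below them for both Itga6 differences.

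Profiles like those of the subunits that varied most were searched among 12710 named genes above background, by the root mean square difference over the 11 arrays after each gene was centred on its mean. Closest to Itga11 was Igf1, a growth factor made by mesenchymal cells, at a difference of 0.285 log2 units, followed by Cyp26a1, a retinoic acid hydroxylase, at 0.439, and Lrp4, a receptor of the LDL receptor family, at 0.457. Igf1 read 6.65, 6.25, 6.84 and 6.54 on the primary arrays, 10.24, 10.26 and 10.65 on the residual arrays, and 8.11, 8.60, 8.22 and 9.89 on the recurrent arrays, with recurrent 4 the highest recurrent array as for Itga11. Closest to Itga6 were Eps8, an actin regulator below growth factor receptors, at 0.295, the prostaglandin transporter Slco2a1 at 0.301 and the spindle protein Ckap2l at 0.316. Closest to Itga2 were the MAPK phosphatase Dusp7 at 0.306, the kinase anchor Akap2 at 0.315 and Nav2 at 0.318. Among the 10 subunits themselves the smallest difference was that of Itga5 and Itgb1, at 0.260, and Itga6 lay closest to Itga2, at 0.599, and next to Itgb4, at 0.750. Small differences arise readily between genes that vary little.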

How the data were processed

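RNA of 11 samples was hybridised to Affymetrix arrays. The deposited values are log2 signals, 1 per gene row, made by the authors with RMA under R 3.0.2 (source: the submitters' processing notes, per the labels); the probe and annotation versions are not given in the sources used here. Of 24479 rows, 23281 were named by the platform annotation and 556 through their Entrez identifier by RefSeq (GRCm38.p6), 642 stayed unnamed, and after 2 shared symbols were resolved to the brighter row 23835 genes were tested. No further normalization was applied.

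The 3 groups were fitted together on all arrays in limma 3.58.1 (R 4.3.3; lmFit and eBayes, 8 residual degrees of freedom), two-sided, with Benjamini-Hochberg adjustment over all named genes and a threshold of 0.05. Every adjusted p comes, apart from those called exact, from this fit or its alternatives. Pairs of subunits were compared by exact permutation tests. On simulated data for residual against primary cells, 57% of 2-fold and 94% of 4-fold changes among 200 of 23835 genes were recovered. In the data 2960 genes passed in that comparison. The adjustment depends on how many genes change, so these shares need not hold for the data. The number of arrays limits the precision. Alternatives were other scalings, fits, filters and thresholds, and leaving out each array.

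The subunits and gene lists were chosen with earlier results of these data known. The rule for naming took from each list up to 4 called genes with the largest change in each comparison. It also took up to 2 genes of lowest p in a list without calls, and the 3 brightest markers. Marker genes it gave that are not printed are covered by their list's counts or ranges. For the 3 subunits that varied most, the 3 genes of nearest profile were named. Other listed genes, among them Col4a1, Col4a2, Epcam, Fap, Fbn1, Fn1, Pdgfra, Trp63, Tln1, Fermt2, Ilk, Ptk2, Vcl, Tns4, Ppbp, Gp1ba, Gp6 and the blood cell subunits on no array above background, were named after their values were seen. Calls of listed genes outside the 10 subunits, and of the pairs, were repeated under alternatives chosen after seeing the data. One listed gene is not reported here.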

Additional observations from a re-analysis of the deposited data

Results flagged for a closer look

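In groups of 4 arrays, 1 array stood apart from the other 3 by more than Dixon's 95% critical value for 8 of 74 gene and group combinations, where chance gives about 1 in 20. Among the 10 subunits this was Itga5 on primary 2, at 9.30 against 9.69 to 9.77 on the other primary arrays. Primary 2 also stood apart for Cd151 (11.02), Lamb1 (9.34), Lamc1 (8.95) and Col5a1 (6.34). Primary 4 stood apart for Itgam (4.57). Recurrent 4 stood apart for Thbs1 (7.13) and Parvb (7.64).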

How the results depend on the processing

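The calls of Itga2, Itga6, Itga11 and Itgb3 in residual against primary cells, and of Itga6 in recurrent against residual cells, kept their direction and their side of 0.05 in all 20 alternatives run at that threshold. With only the 2 groups compared in the fit, Itgb3 passed beside Itga11 in recurrent against primary cells. In recurrent against residual cells 609 genes and 1 subunit, Itga6, then passed. At an adjusted p under 0.01, 1375, 142 and 521 genes and 3, 0 and 1 subunits passed in the comparisons of residual with primary, recurrent with primary and recurrent with residual cells. Leaving out 1 array gave 2228 to 3073, 203 to 420 and 936 to 1325 genes and 4 to 7, 0 to 2 and 1 to 2 subunits in the same order; adjusted pair differences stayed at 0, a value that groups this small can hardly move and that says nothing of stability. With the replicate number as a block, 277 genes passed in recurrent against primary and 872 in recurrent against residual cells. Itga3 in residual against primary cells then had an adjusted p of 0.0570. Same-numbered arrays did not deviate together (r from -0.0805 to 0.0172). Whether they share more than a number is not stated in the labels and cannot be told from these correlations.

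Small differences of uncalled subunits changed sign. Itgb6, under background throughout, had -0.043 (arrays centred), -0.067 (scaled to one interquartile range), -0.046 (array weights) and, leaving out 1 array, -0.119 (primary 2) to 0.148 (primary 1) in recurrent against primary cells. It had -0.039 (scaled) and -0.113 (without residual 2) to 0.305 (without residual 3) in residual against primary cells, and -0.296 (without residual 3) to 0.122 (without residual 2) in recurrent against residual cells. In recurrent against residual cells Itgav had -0.076 (scaled) and -0.031 (quantile), and Itgb1 had -0.169 (scaled), -0.074 (quantile) and, leaving out 1 array, -0.079 (recurrent 3) to 0.267 (recurrent 1). Itgb4 had -0.287 (without recurrent 2) to 0.063 (without recurrent 3) in recurrent against primary cells. The causes were not tested. Signals near background, as for Itga11 in primary cells, limit fold changes.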
